A study of Mus musculus with 8 samples.

Results

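Nfe2l2, which encodes the transcription factor NRF2, was examined with Keap1, the adaptor that marks NRF2 for destruction, and with 8 antioxidant genes of the same pathway: Nqo1, Hmox1, Txnrd1, Txn1, Srxn1, Sqstm1, G6pdx and Sod2. The 10 genes were taken by their symbols from the 54146 genes listed for each library. Each symbol was found with 1 identifier, and all 10 genes passed the filter on low counts in every comparison.

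NRF2 is made continuously and is degraded while KEAP1 holds it to a CUL3 ubiquitin ligase. When oxidants or electrophiles modify KEAP1, or when the autophagy receptor p62 (Sqstm1) occupies it, NRF2 accumulates, pairs with small MAF proteins and binds antioxidant response elements, where the repressor BACH1 competes with it. Astrocytes are known as a main site of this pathway in the brain. NRF2 activity is set largely by the stability of the protein, so the level of Nfe2l2 mRNA does not measure it.

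RNA was sequenced from primary cortical astrocytes of C57BL/6 mouse pups at postnatal days 2 to 5, in 8 libraries. Control KD astrocytes carried a non-silencing shRNA and GSTM1 KD astrocytes an shRNA against Gstm1, a glutathione S-transferase that joins glutathione to electrophiles. Each was sampled at the basal level, with no stimulation, and 6 h into treatment with 50 ng/ml of TNF-α (stimulated cells), with 2 libraries in each of the 4 groups. All cells had been infected with lentivirus, selected with puromycin and depleted of CD11b-positive microglia, in flasks that pooled pups, and no uninfected cells were among the libraries. The study calls the libraries biological replicates, but the labels do not say what a replicate number marks, so p-values measure the spread between these libraries.

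The libraries held 17349676 to 34434633 expected counts, the fragments that RSEM assigned to genes. Gstm1 was at 230 and 377 CPM, counts scaled to an equal library total, in control KD and at 29.0 and 31.3 CPM in GSTM1 KD among basal cells, and at 209 and 390 against 24.3 and 23.3 CPM in stimulated cells. All 10 astrocyte markers were detected, and their summed level was lowest in replicate 1 of control KD, at 3229 CPM basal and 3315 CPM in stimulated cells, against 6567 to 9600 CPM in the other libraries. The 10 microglia and macrophage markers summed to 5.32 to 9.89 CPM in control KD and 3.6 to 5.62 CPM in GSTM1 KD among basal cells, and to 6.07 to 9.86 and 3.62 to 6.05 CPM in stimulated cells, with Aif1 at 0 to 4 counts and P2ry12 at 0 to 2 counts. The oligodendrocyte lineage list, most of it Olig1, summed to 577 to 742 CPM in control KD and 466 to 535 CPM in GSTM1 KD, while Mog was at 0 or 1 count. The astrocyte markers had median log2 fold changes of 0.52 in basal and 0.28 in stimulated GSTM1 KD cells, with Gfap at 1.10 ± 0.556 and 1.08 ± 0.553, Aldoc at 1.11 ± 0.55 and 1.10 ± 0.564 and Aldh1l1 at 1.05 ± 0.464 and 1.22 ± 0.423 the most positive, and Sox9 at -0.50 ± 0.213 and -0.41 ± 0.17 and Aqp4 at -0.077 ± 0.388 and -0.018 ± 0.356 on the other side, none of which passed. S100b was the astrocyte marker that passed, and it was 2.72-fold lower in GSTM1 KD among basal cells (adjusted p = 0.0269 by edgeR) and 3.28-fold lower among stimulated cells (0.0387). Of the other cell markers, Olig2 was 1.8-fold and 2.2-fold lower, Col1a2 2.18-fold and 1.98-fold lower and Folr1, at 3 to 55 counts, 6.35-fold and 6.86-fold higher in the same comparisons, and in stimulated cells Olig1 was 1.36-fold lower and Pdgfrb 1.75-fold higher. The part of these cell markers in the results was not tested, and in bulk RNA fewer cells of a type and less RNA per cell cannot be told apart.

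The stretches of promoter that carry the DNA letters NRF2 is known to bind are shown first, because they show which of the genes with a promoter entry hold them near a start site. RefSeq promoter windows on GRCm38.p6, from 250 bases before to 50 bases after a start site, were found for 9 of the 10 genes in 11 windows. Hmox1 had no entry. The antioxidant response element core TGACNNNGC, searched on both strands, occurred in 4 of the 11 windows, each of a different gene, and in 12.4% of 32851 windows of that length. In the following stretches, written 5′ to 3′ on the gene's strand, capitals mark the match, which reads as its reverse complement where it lies on the other strand.
Nfe2l2, match at chr2:75704895-75704903, gene on the minus strand: agcccaccTGACTCCGCcatgcccc
Srxn1, match at chr2:152105552-152105560, gene on the plus strand: agtgggcaGCTAGGTCAgagtgaga
Txnrd1, second window, match at chr10:82859114-82859122, gene on the plus strand: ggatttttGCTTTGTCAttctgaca
G6pdx, match at chrX:74428929-74428937, gene on the minus strand: gcgggtcaGCTCAGTCAaagcacac

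The match lay 240 bases before the start site in Nfe2l2, 92 in the second Txnrd1 window and 57 in G6pdx, counted to its first base, and began 28 bases after the start site in Srxn1. A stricter form, TGACTCAGC, occurred in none of the 11 windows and in 0.454% of all windows. The core with G in place of C, TGAGNNNGC, was searched after the data were seen, and 1 of the 11 windows, that of Srxn1, held it in 2 matches, against 17.6% of all windows. The AP-1 element TGANTCA also occurred in the Srxn1 window alone, at 2 places, against 7.81% of all windows, and 1 of them shares its letters with a TGAGNNNGC match. The NF-κB element GGGNNTTCC occurred in none of the 11 windows and in 5.82% of all windows. A match is a run of letters, not a shown binding site, and a window without one says only that these letters are not in it.

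The whole window is printed for Srxn1, which held the most matches, for the second start site of Txnrd1, and for Sqstm1, in which none of the motifs was found. Capitals mark TGACNNNGC. The Srxn1 window is chr2:152105274-152105573 on the plus strand, the Txnrd1 window is chr10:82858956-82859255 on the plus strand, and the Sqstm1 window is chr11:50210771-50211070 on the minus strand.
Srxn1: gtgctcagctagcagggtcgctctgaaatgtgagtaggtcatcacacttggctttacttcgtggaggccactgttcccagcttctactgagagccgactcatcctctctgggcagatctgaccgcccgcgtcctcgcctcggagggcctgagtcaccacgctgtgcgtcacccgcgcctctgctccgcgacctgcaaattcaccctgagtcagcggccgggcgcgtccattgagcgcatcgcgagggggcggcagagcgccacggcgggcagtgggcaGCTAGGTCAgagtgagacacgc
Txnrd1: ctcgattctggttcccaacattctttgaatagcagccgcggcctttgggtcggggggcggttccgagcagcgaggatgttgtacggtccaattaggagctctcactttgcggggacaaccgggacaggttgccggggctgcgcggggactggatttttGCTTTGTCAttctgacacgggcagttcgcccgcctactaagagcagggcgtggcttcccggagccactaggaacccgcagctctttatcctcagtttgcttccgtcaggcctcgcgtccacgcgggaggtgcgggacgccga
Sqstm1: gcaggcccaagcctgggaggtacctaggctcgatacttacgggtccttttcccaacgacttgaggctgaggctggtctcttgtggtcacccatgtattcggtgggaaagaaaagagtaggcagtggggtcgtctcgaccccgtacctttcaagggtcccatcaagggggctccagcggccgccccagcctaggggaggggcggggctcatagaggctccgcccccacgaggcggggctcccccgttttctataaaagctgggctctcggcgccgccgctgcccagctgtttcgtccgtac

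**Figure D1:**
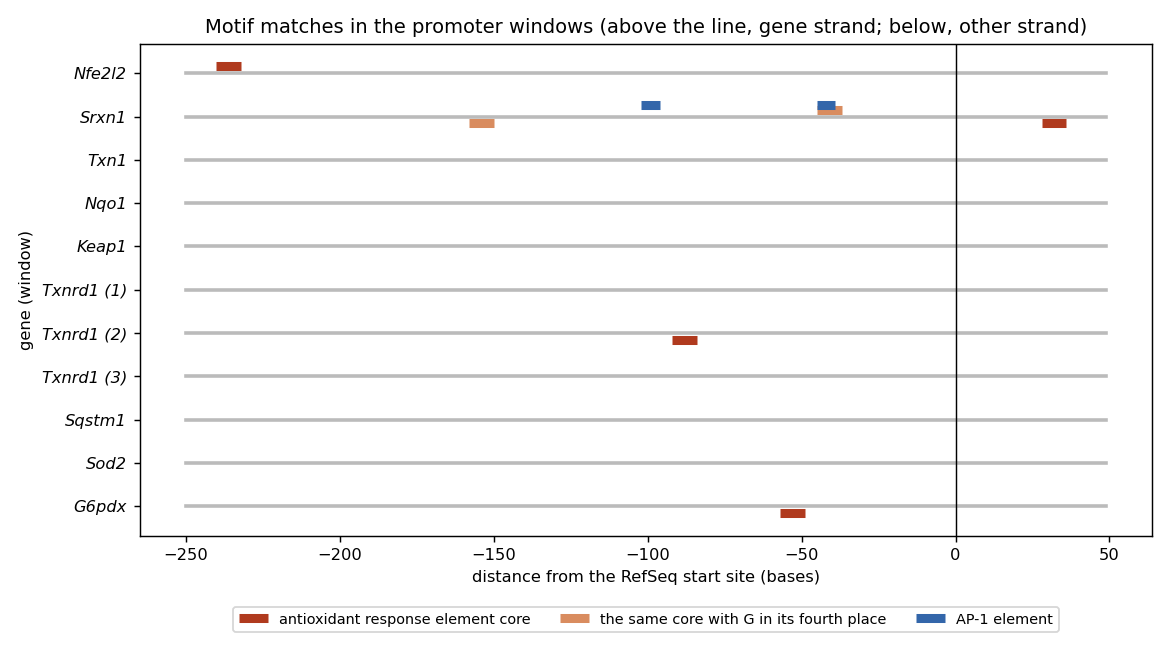
Motif matches in the 11 RefSeq promoter windows of 9 genes, by distance from the start site in bases. Bars above a line lie on the gene's strand and bars below it on the other strand, and Srxn1 holds the most matches.

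Levels of different genes were compared per length, in deposited TPM, transcript abundance scaled for length and library total. In control KD at the basal level, Sqstm1 was highest at 506 ± 44.1 TPM, followed by Hmox1 at 390 ± 127, Txn1 at 371 ± 49, Txnrd1 at 305 ± 66.1 and Nfe2l2 at 295 ± 3.75 (SD, n = 2). Among these 5 genes each overlapped its neighbour in the order. Srxn1 was at 90.9 ± 19.2, G6pdx at 62.6 ± 7.5, Sod2 at 48.3 ± 3.49 and Keap1 at 44.7 ± 1.39 TPM, and no neighbours among these 4 overlapped. Nqo1, a quinone reductase widely used as a readout of NRF2, was lowest at 7.95 ± 1.21 TPM.

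The mRNA of the regulator stood among the most abundant in these cells, and that of its repressor well below it. Nfe2l2 lay at the 96.1 percentile and Keap1 at the 69.8 percentile of genes over 1 TPM in control KD at the basal level. Sqstm1 kept the first place and Nqo1 the last in all 4 groups. Nfe2l2 moved from 5th place in control KD to 2nd in GSTM1 KD in both states, at 336 ± 32.9 TPM basal and 386 ± 9.49 TPM in stimulated cells (SD, n = 2). Hmox1 was 2nd and 3rd in control KD and 5th in GSTM1 KD.

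The next question was whether knocking down GSTM1, an enzyme that uses glutathione, changed these genes at the basal level. Hmox1, the inducible heme oxygenase that breaks heme into biliverdin, iron and carbon monoxide, was lower in GSTM1 KD. It was the only 1 of the 10 genes that passed edgeR's test in the main fit. That fit used the 4 libraries of a state, filtered low counts and had no block for the replicate number. In all, 4 genes had a positive and 6 a negative log2 fold change. The count of 1 in 10 stands beside 10.2% of the 14899 genes tested that passed in either direction, so the share among these genes was near that of all genes. With a replicate block, which groups libraries by replicate number, 4712 of all genes tested passed, Hmox1, Txnrd1, Txn1 and G6pdx among them.

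Hmox1 (ENSMUSG00000005413.8, chr8:75093621-75100589, plus strand) was at 378 and 233 CPM in control KD and at 150 and 127 CPM in GSTM1 KD at the basal level. In stimulated cells it was at 353 and 261 CPM in control KD and at 166 and 145 CPM in GSTM1 KD. Both GSTM1 KD libraries were below both control KD libraries in each state, and the control KD libraries were farther apart from each other than the GSTM1 KD libraries. The log2 fold change was -1.14 ± 0.246 (SE, n = 2 against 2) at the basal level, 2.21-fold lower, with a Benjamini-Hochberg adjusted p of 0.0442 in the quasi-likelihood test of edgeR. In stimulated cells it was -1.01 ± 0.177, 2.01-fold lower, with an adjusted p of 0.0245 by edgeR.

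Replicate 1 of control KD, the library with the highest Hmox1 in each state, was also the library with the lowest sum of astrocyte markers. Without it, the log2 fold change of Hmox1 was -0.75 at the basal level (adjusted p = 0.0101 by edgeR) and -0.77 in stimulated cells (0.00712). Without control KD replicate 2 it was -1.46 (0.000126 by edgeR) and -1.21 (0.00068). Without either GSTM1 KD library it no longer passed, at adjusted p = 0.145 and 0.264 at the basal level and 0.104 and 0.164 in stimulated cells by edgeR. At the basal level Hmox1 also missed the threshold in limma on log2(TPM + 1) and log2(TPM + 0.1), with adjusted p = 0.0574 and 0.0562.

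Across the 8 libraries, the genes whose log2 CPM followed Hmox1 most closely encoded ribosomal proteins: Rps13 at r = 0.999, Rps9 at 0.997 and Rpl10a at 0.997 (Pearson, 8 libraries, a description that carries the group differences). The 83 ribosomal protein genes tested, a list drawn up after this was seen, had a median of -0.51 on the log2 scale at the basal level. Of them 3 were lower and 0 higher, beside 10.2% of all genes called. At an unadjusted p under 0.05 in edgeR's test there were 61, beside 4712 of all 14899 genes tested. In stimulated cells their median was -0.45, with 22 lower and 0 higher beside 16.2% of all genes called. There 63 were at an unadjusted p under 0.05 in edgeR's test, beside 5286 of all 14593 genes tested. The log2 fold changes of Hmox1 in GSTM1 KD were farther from 0 than the lowest among these genes, -0.93 and -0.94. Their part in the result was not tested.

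In the thioredoxin system, thioredoxin reduces protein disulfides and is itself recharged by thioredoxin reductase with NADPH. Of Txnrd1, Txn1 and Srxn1, Txnrd1 alone passed edgeR's test in the main fit, and in stimulated cells alone. With the replicate block, Txnrd1 and Txn1 also passed at the basal level, and Txn1 and Srxn1 in stimulated cells. Txnrd1 (ENSMUSG00000020250.10, chr10:82833951-82897712, plus strand), the cytosolic reductase, was at 579 and 411 CPM in control KD and at 372 and 349 CPM in GSTM1 KD at the basal level. In stimulated cells it was at 985 and 669 CPM in control KD and at 451 and 417 CPM in GSTM1 KD. The groups did not overlap in either state, and the control KD replicate 1 library was again the highest of its group.

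In stimulated cells the log2 fold change of Txnrd1 in GSTM1 KD was -0.96 ± 0.206 (SE), 1.94-fold lower, with an adjusted p of 0.0376 by edgeR's quasi-likelihood test. At the basal level the value was -0.46 ± 0.186, with an adjusted p of 0.159 by edgeR and a 95% interval from -0.92 to 0.0024. It was -0.19 without control KD replicate 1 (adjusted p = 0.317 by edgeR) and -0.69 without control KD replicate 2 (0.00269). The difference between the states was itself tested as the difference of the TNF-α responses and did not pass, at -0.47 ± 0.305 (adjusted p = 1 by edgeR, unadjusted p = 0.164). Leaving out single libraries moved it between -0.16 without stimulated control KD replicate 1 and -0.74 without basal control KD replicate 1 or stimulated control KD replicate 2, with -0.26 without basal control KD replicate 2. Without control KD replicate 1 the value in stimulated cells was -0.64 (adjusted p = 0.0122 by edgeR), and without either GSTM1 KD library the call was lost, at 0.151 and 0.224.

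Txn1 (ENSMUSG00000028367.5, chr4:57943373-57956411, minus strand), the cytosolic thioredoxin itself, was at 196 and 159 CPM in control KD and 137 and 126 CPM in GSTM1 KD among basal cells, and at 194 and 179 against 148 and 151 CPM in stimulated cells. Its groups were apart in both states, yet neither difference passed: the log2 fold changes were -0.43 ± 0.139 (adjusted p = 0.1 by edgeR) and -0.34 ± 0.0996 (0.0694). Srxn1 (ENSMUSG00000032802.8, chr2:152105516-152111376, plus strand), sulfiredoxin, which restores overoxidized peroxiredoxins, was at 112 and 148 against 99.6 and 112 CPM at the basal level, control KD first, and at 114 and 167 against 100.2 and 127 CPM in stimulated cells. In Srxn1 replicate 2 was the higher library in all 4 groups, opposite to Hmox1 and Txnrd1, and the groups nearly met among basal cells and overlapped in stimulated cells. Its log2 fold changes were -0.30 ± 0.161 and -0.33 ± 0.209, and the adjusted p was 0.259 and 0.302 by edgeR. Both moved with the control KD library left out, and they were -0.094 and -0.032 without control KD replicate 2, and -0.49 (adjusted p = 0.0276 by edgeR) and -0.58 (0.035) without control KD replicate 1. Without control KD replicate 2, Txn1 was at -0.59 in basal and -0.40 in stimulated cells. Without control KD replicate 1 it was at -0.28 in each state.

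**Figure D2:**
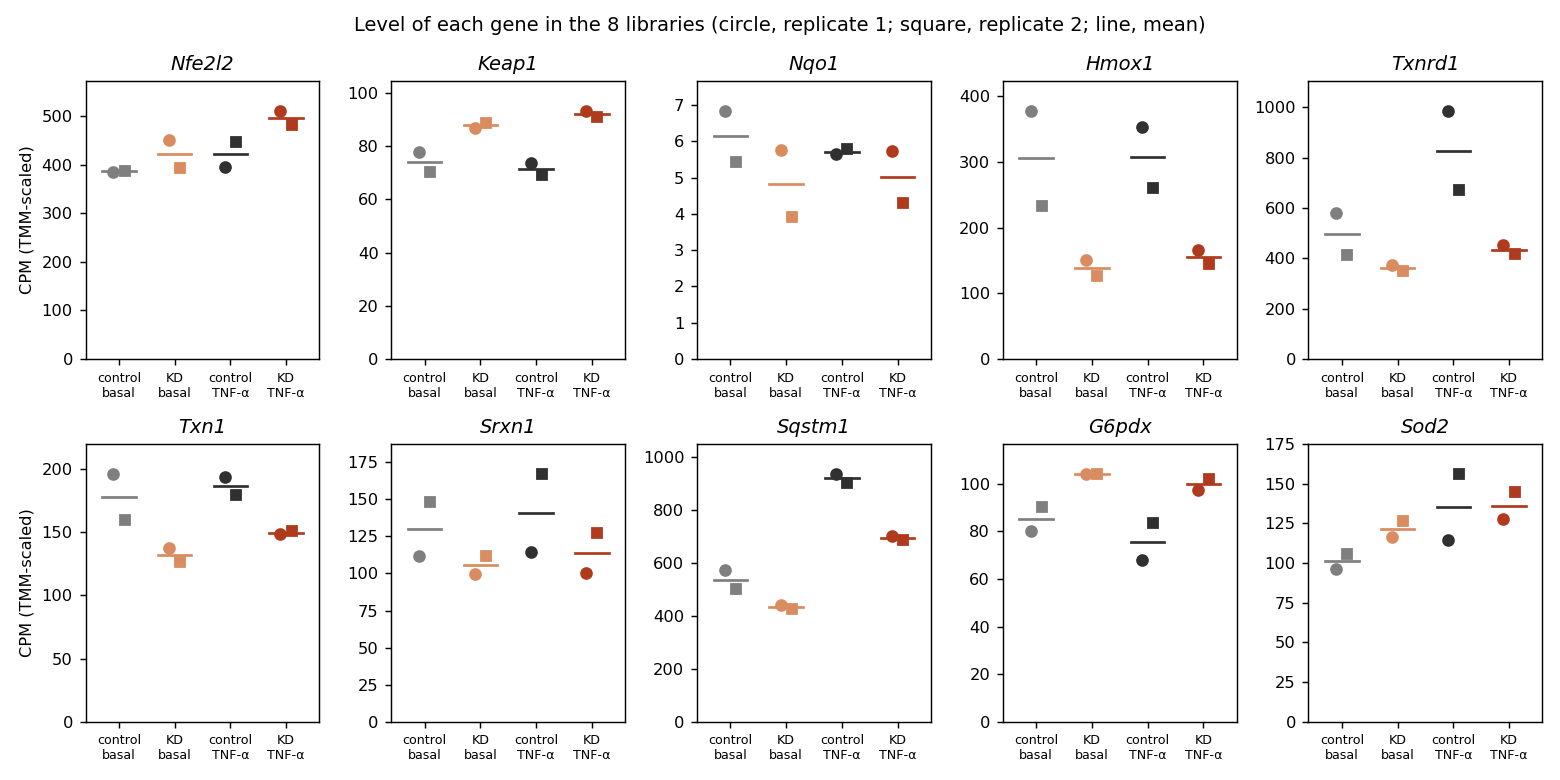
Level of each of the 10 genes in the 8 libraries, in CPM scaled by TMM factors, with the vertical axis starting at 0. Hmox1 in both states and Txnrd1 in stimulated cells are lower in GSTM1 KD, with a wide gap between the control KD replicates, and Sqstm1 is higher after TNF-α in both knockdowns.

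NRF2 and KEAP1, the regulator and its repressor, did not pass the test in either state in the main fit. With the replicate block Keap1 passed in stimulated cells. Nfe2l2 (ENSMUSG00000015839.6, chr2:75675513-75704641, minus strand) was at 385 and 387 CPM in control KD and 450 and 392 CPM in GSTM1 KD among basal cells, and at 396 and 447 against 510 and 482 CPM in stimulated cells. Its values were higher in GSTM1 KD with no overlap, by a log2 fold change of 0.12 ± 0.124 (95% interval -0.18 to 0.43, adjusted p = 0.531 by edgeR) and of 0.21 ± 0.116 (-0.078 to 0.50, 0.246). Keap1 (ENSMUSG00000003308.15, chr9:21229730-21239361, minus strand) was at 77.6 and 70.4 against 86.8 and 88.8 CPM in basal cells and at 73.5 and 69.1 against 93.2 and 90.8 CPM in stimulated cells. The GSTM1 KD libraries were above the control KD libraries in both states, with log2 differences of 0.25 ± 0.104 (adjusted p = 0.173 by edgeR) and 0.34 ± 0.0944 (0.0629). Leaving out single libraries moved Keap1 between 0.17 and 0.32 in basal cells and between 0.30 and 0.39 in stimulated cells. The values of Nfe2l2 then lay between 0.022 and 0.21 in basal cells and between 0.13 and 0.30 in stimulated cells.

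Sqstm1 (ENSMUSG00000015837.15, chr11:50199366-50210827, minus strand) encodes p62, which carries ubiquitinated cargo to autophagosomes and binds KEAP1. It was at 573 and 500.5 CPM in control KD and 439 and 426 CPM in GSTM1 KD among basal cells, and at 938 and 904 against 701 and 686 CPM in stimulated cells. The knockdown groups were apart in both states, with log2 fold changes of -0.31 ± 0.126 (adjusted p = 0.16 by edgeR) and -0.43 ± 0.112 (0.0538). The second value lay just outside the threshold and passed it in DESeq2, at an adjusted p of 0.0108, and in edgeR with the replicate block. Without control KD replicate 2 the values were -0.41 and -0.46, and without control KD replicate 1 they were -0.21 and -0.40. Mrnip, whose exons overlap Sqstm1 on the opposite strand, had 50.0 to 162 counts beside 8511 to 21779 for Sqstm1, and whether the counting used strand is not given in the sources used here.

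G6pdx (ENSMUSG00000031400.10, chrX:74409483-74429194, minus strand), glucose-6-phosphate dehydrogenase, makes the NADPH that thioredoxin reductase and glutathione reductase spend. It was at 80.1 and 90.1 CPM in control KD and 104 and 104 CPM in GSTM1 KD among basal cells, and at 67.9 and 83.4 against 97.4 and 102 CPM in stimulated cells. The GSTM1 KD libraries were the higher in both states, opposite to Hmox1 and Txnrd1, with log2 fold changes of 0.29 ± 0.107 (adjusted p = 0.132 by edgeR) and 0.38 ± 0.123 (0.0902). Without control KD replicate 2 the values of G6pdx were 0.37 and 0.53, and without control KD replicate 1 they were 0.21 and 0.24. With the replicate block G6pdx passed in both states. Ikbkg, whose exons overlap G6pdx on the opposite strand, had 1040 to 2557 counts, of the same order as the 1387 to 2833 of G6pdx, so its value is uncertain. The retrogene G6pd2 had 0 to 2 counts.

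Sod2 (ENSMUSG00000006818.4, chr17:13006846-13040063, plus strand), the mitochondrial superoxide dismutase, is also known as a target of NF-κB. It was at 96.4 and 106 CPM in control KD and 116 and 126 CPM in GSTM1 KD at the basal level, a log2 fold change of 0.26 ± 0.111 (adjusted p = 0.173 by edgeR). In stimulated cells it was at 115 and 156 against 128 and 144 CPM, so the GSTM1 KD libraries lay between the control KD libraries, with a log2 fold change of -0.017 ± 0.164 and a 95% interval from -0.43 to 0.39. Leaving out single libraries moved this value of Sod2 between -0.22 and 0.22. Nqo1 (ENSMUSG00000003849.8, chr8:107388225-107403206, minus strand) had 75 to 242 counts, at 6.84 and 5.43 against 5.75 and 3.90 CPM in basal cells and 5.64 and 5.77 against 5.72 and 4.31 CPM in stimulated cells. Its groups overlapped in both states, and its log2 fold changes of -0.35 ± 0.28 and -0.21 ± 0.247 had the widest 95% intervals of the 10 genes, from -1.04 to 0.35 and from -0.82 to 0.41. Leaving out single libraries moved them between -0.65 and -0.11 and between -0.42 and -0.017.

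In stimulated cells 2 of the 10 genes, Hmox1 and Txnrd1, passed the test between GSTM1 KD and control KD in the main fit, beside 16.2% of the 14593 genes tested. With the replicate block 7 of the 10 passed, with Keap1, Sqstm1, Txn1, G6pdx and Srxn1 added, beside 4302 of all genes tested. The labels do not say what a replicate number marks. Groups that did not overlap were common throughout these libraries. They were found in 9 of the 10 genes at the basal level and in 7 of 10 in stimulated cells, and in 63.5% and 66.6% of all genes tested. An exact test on groups of 2 cannot reach 0.05. For the 10 genes the median was -0.31 on the log2 scale at the basal level and -0.27 in stimulated cells, while those of all genes tested were -0.0020 and -0.011.

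**Figure D3:**
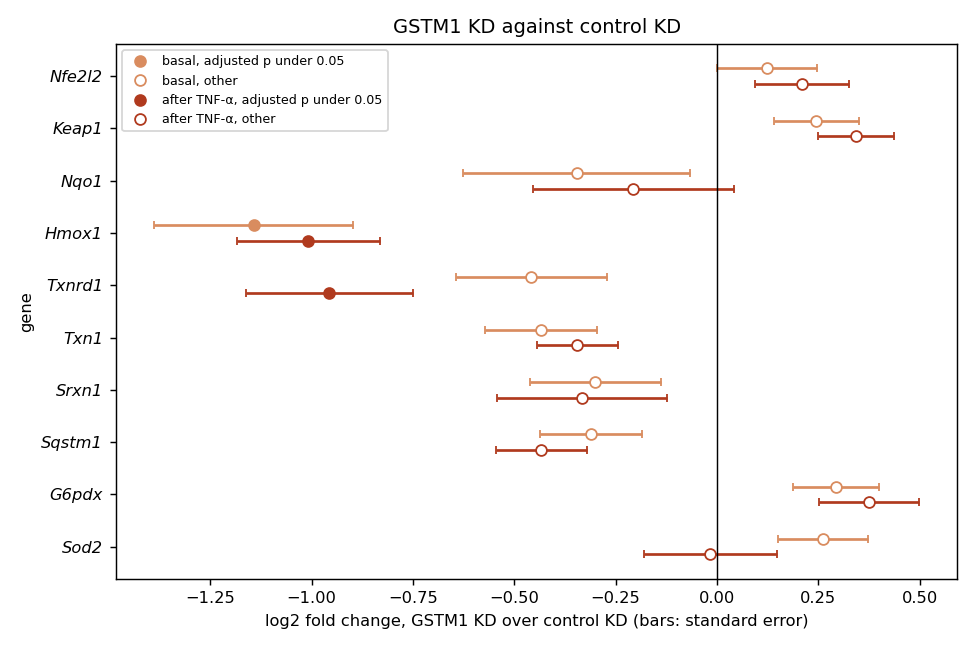
Log2 fold change of GSTM1 KD over control KD for the 10 genes, with standard errors, at the basal level and in stimulated cells (2 libraries per group). Filled points, Hmox1 in both states and Txnrd1 after TNF-α, have an adjusted p under 0.05 in edgeR.

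TNF-α, a cytokine that drives NF-κB, was compared with no stimulation within each knockdown to see how the genes responded over 6 h. The 10 NF-κB driven genes listed to report the stimulus were chosen by role with earlier results of these data known. All 10 rose in both knockdowns, with median log2 fold changes of 3.0 (control KD) and 3.6 (GSTM1 KD). Of NRF2, KEAP1 and the 8 antioxidant genes, Sqstm1 alone passed edgeR's test in the main fit of all 8 libraries, and it rose in both knockdowns. This was 1 of 10 genes beside 2.63% of the 15332 genes tested in control KD and 2.65% in GSTM1 KD.

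Sqstm1 was higher in both stimulated libraries than in both basal libraries of each knockdown, as the CPM values above show. Its log2 fold change was 0.78 ± 0.0993 (SE) in control KD, 1.72-fold, with an adjusted p of 0.0101, and 0.68 ± 0.0993 in GSTM1 KD, 1.60-fold, with an adjusted p of 0.0148, by edgeR's quasi-likelihood test. In control KD the call held without each library in turn but not when the fit was restricted to the 4 control KD libraries, where the adjusted p was 0.138 by edgeR. In GSTM1 KD it was lost without any 1 of the 4 GSTM1 KD libraries, with an adjusted p from 0.0888 to 0.167 by edgeR. The responses of the 2 knockdowns differed by -0.097 ± 0.14, with a 95% interval from -0.43 to 0.23.

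Txnrd1 and Sod2 had the largest responses in control KD among the other genes, and neither passed in the main fit. With the replicate block both passed in control KD, where 988 of all genes tested did. The log2 fold change of Txnrd1 was 0.74 ± 0.216 in control KD (adjusted p = 0.169 by edgeR) and 0.27 ± 0.216 in GSTM1 KD (0.863), and both stimulated libraries were above both basal libraries in each. DESeq2 called the control KD response of Txnrd1, at an adjusted p of 0.0181. By edgeR it was 0.43 without stimulated control KD replicate 1, 0.53 without basal control KD replicate 2 and 1.01 without basal replicate 1 or stimulated replicate 2, and it passed in none of these. Sod2 had 0.42 ± 0.153 in control KD (adjusted p = 0.29 by edgeR) and 0.17 ± 0.153 in GSTM1 KD (0.918). Its control KD value was 0.20 without stimulated control KD replicate 2 and 0.63 without stimulated control KD replicate 1. Hmox1 was near 0 in control KD, at 0.0068 ± 0.243 with a 95% interval from -0.56 to 0.58, and at 0.17 ± 0.244 in GSTM1 KD, from -0.41 to 0.74. The control KD value of Hmox1 was 0.40 without basal control KD replicate 1 and -0.29 without basal control KD replicate 2. Leaving out single libraries moved its GSTM1 KD value between 0.052 and 0.30.

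Nfe2l2 was at 0.13 ± 0.108 in control KD and 0.24 ± 0.108 in GSTM1 KD, higher after TNF-α without overlap in both, and Keap1 was at -0.054 ± 0.0839 and 0.068 ± 0.0838, on the log2 scale. Leaving out single libraries moved Nfe2l2 between 0.051 and 0.21 in control KD and between 0.14 and 0.34 in GSTM1 KD. The remaining responses, of Nqo1, Txn1, Srxn1 and G6pdx, lay between -0.17 and 0.18, and none passed. With single libraries left out they lay between -0.31 (G6pdx) and 0.36 (Srxn1) in control KD. In GSTM1 KD they then lay between -0.19 and 0.37, both for Nqo1. Basal and stimulated libraries did not overlap in 4 of the 10 genes in control KD and in 7 of 10 in GSTM1 KD, and in 34.5% and 44.5% of all genes tested.

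**Figure D4:**
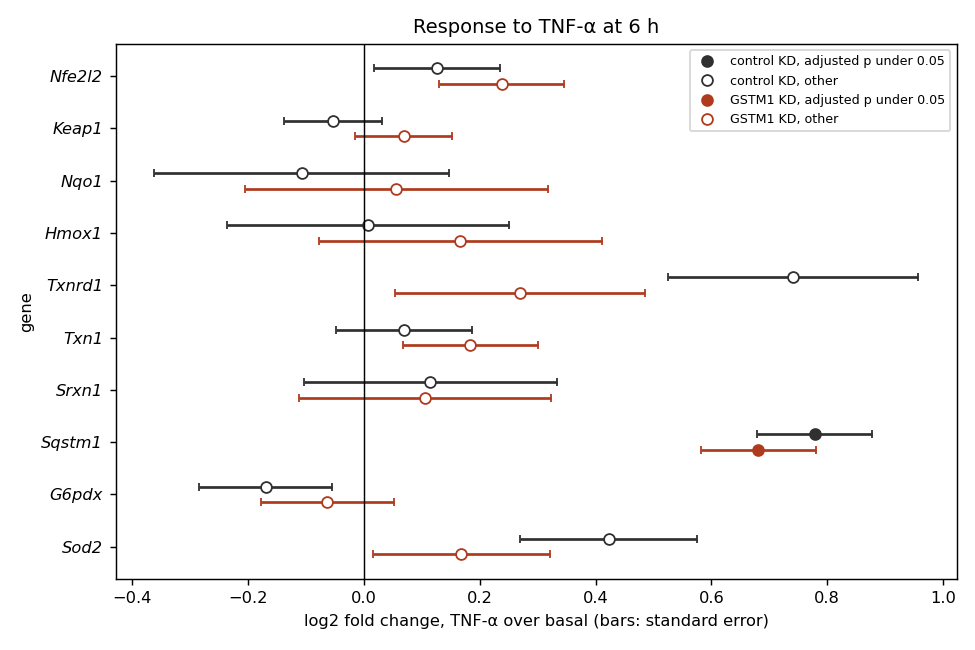
Log2 fold change of TNF-α over basal for the 10 genes in control KD and in GSTM1 KD, with standard errors from the fit of all 8 libraries. Sqstm1 is the gene past the adjusted threshold in both, and Txnrd1 and Sod2 sit farther from 0 in control KD than in GSTM1 KD, a difference that did not pass a test.

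Whether the response to TNF-α depended on the knockdown was tested for every gene as the difference of the 2 responses. None of the 10 genes passed, and 0% of the 15332 genes tested did (0 genes by edgeR, 295 at an unadjusted p under 0.05, and 27 by DESeq2). The values for the 10 genes ran from -0.47 for Txnrd1 and -0.25 ± 0.216 for Sod2 to 0.16 for Nqo1 and Hmox1, with 95% intervals that all included 0. Leaving out single libraries moved the value of Sod2 between -0.46 and -0.032. It moved that of Nqo1 between -0.091 and 0.47 and that of Hmox1 between -0.23 and 0.45. Both knockdowns' responses and this difference share libraries, so they are not independent of each other.

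The proteins around NRF2 were described by a list of 16 partners, repressors and degradation factors, of which 15 could be tested. In GSTM1 KD, 1 was higher and 1 lower at the basal level, and 3 were lower in stimulated cells, while 10.2% and 16.2% of all genes tested passed in either direction. The same shares stand beside the knockdown counts of the lists that follow. Nfe2l1, the NRF2 relative known for driving proteasome genes, was at 573 and 552 CPM in control KD and 295 and 268 CPM in GSTM1 KD among basal cells, and at 716 and 670 against 341 and 328 CPM in stimulated cells. Its libraries were close within each group, and it was 2.00-fold lower (adjusted p = 0.0183 by edgeR) and 2.11-fold lower (0.0111) in GSTM1 KD.

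Bach1, the repressor that competes with NRF2 and is best known for holding down Hmox1, moved with both treatments. It was at 29.9 and 34.6 CPM in control KD and 21.3 and 23.2 CPM in GSTM1 KD among basal cells, and at 70.3 and 91.3 against 42.4 and 43.1 CPM in stimulated cells. It rose 2.5-fold with TNF-α in control KD (adjusted p = 0.00609 by edgeR) and 1.92-fold in GSTM1 KD (0.0196). In stimulated cells it was 1.92-fold lower in GSTM1 KD than in control KD (0.0187 by edgeR). Hmox1 mRNA was also lower there, and whether they are linked was not tested. In basal cells the value for Bach1 was -0.53 ± 0.139 on the log2 scale, short of the threshold (adjusted p = 0.0669 by edgeR). Cul3, the ligase scaffold, and Mafg, a small MAF partner, had log2 fold changes between -0.084 and 0.087 in every comparison of knockdown or stimulus. Dpp3, which binds KEAP1, was 1.37-fold higher at the basal level (0.0442 by edgeR), Pgam5, a KEAP1-bound mitochondrial phosphatase, was 1.58-fold lower in stimulated cells (0.0433), and Nfe2l3 rose 3.03-fold with TNF-α in control KD (0.0475).

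The other genes of heme and iron handling differed from Hmox1 in part. Of 7 tested, 1 was lower in GSTM1 KD among basal cells and 2 in stimulated cells. Ftl1, the ferritin light chain that stores iron, was at 1306 and 1007 CPM in control KD and 395 and 333 CPM in GSTM1 KD among basal cells, and at 1149 and 968 against 356 and 328 CPM in stimulated cells. It was 3.18-fold lower (adjusted p = 0.0161 by edgeR) and 3.15-fold lower (0.00981), with the caution that near-identical copies of Ftl1 can share its reads. Fth1, the heavy chain, chosen after its values were seen, had log2 fold changes of 0.056 ± 0.142 and 0.00083 ± 0.16, and Hmox2, the constitutive heme oxygenase, -0.19 ± 0.127 and -0.19 ± 0.118. Slc48a1, a heme transporter, was 1.34-fold lower in stimulated cells (0.0376 by edgeR).

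Among 14 partners of thioredoxin and peroxiredoxin, Sesn1 was 1.84-fold and 1.90-fold higher in GSTM1 KD (adjusted p = 0.0419 and 0.018 by edgeR) and no other passed. The mitochondrial counterparts Txn2 and Txnrd2 had log2 fold changes of -0.27 and 0.096 at the basal level and -0.31 and 0.12 in stimulated cells, and Prdx1 had -0.15 and -0.12. Of 7 glutathione genes, none passed at the basal level by edgeR, with 2 at an unadjusted p under 0.05, beside 4712 of all 14899 genes tested. Gss, glutathione synthetase, was 1.39-fold lower in stimulated cells (0.045 by edgeR). In the TNF-α responses none of the 7 passed by edgeR. For control KD, 1 was at an unadjusted p under 0.05 in edgeR's test, beside 1920 of all 15332 genes tested. For GSTM1 KD there were 2, beside 1670 of all genes tested.

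In NADPH supply 9 of 10 genes were tested. H6pd, the microsomal relative of G6pdx, was at 17.4 and 15.9 CPM in control KD and 8.15 and 7.91 CPM in GSTM1 KD among basal cells, and at 19.9 and 23.2 against 10.2 and 10.3 CPM in stimulated cells. It was 2.08-fold and 2.13-fold lower (adjusted p = 0.025 and 0.0167 by edgeR), opposite in sign to G6pdx, and Idh1 was 1.81-fold higher in stimulated cells (0.0345). Pgd, the enzyme after G6pdx in the pentose phosphate pathway, had log2 fold changes of 0.045 ± 0.106 and 0.054 ± 0.0919.

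Of the other superoxide dismutases, catalase and superoxide sources, Sod1 had log2 fold changes of 0.042 ± 0.109 and 0.087 ± 0.1 and Sod3 of 0.13 ± 0.186 and -0.26 ± 0.174, while Cyba, a subunit of NADPH oxidase, was 1.59-fold lower in stimulated cells (adjusted p = 0.0251 by edgeR). Of 15 genes for quinones, carbonyls and conjugates, none passed at the basal level by edgeR. There 9 were at an unadjusted p under 0.05, beside 4712 of all 14899 genes tested. In stimulated cells 2 were higher and 1 lower. These were Aox1, aldehyde oxidase, at 1.72-fold higher (0.0208), Gsta4, a glutathione transferase for lipid aldehydes, at 1.5-fold higher (0.0479), and Abcc1, which exports glutathione conjugates, at 1.58-fold lower (0.0152). Abcc1 also rose with TNF-α, 1.54-fold in control KD (0.00764) and 1.31-fold in GSTM1 KD (0.0432), and Akr1b3, an aldose reductase, rose 1.61-fold in control KD (0.0308). Nqo2, the relative of Nqo1, had log2 fold changes of -0.47 ± 0.145 and -0.27 ± 0.127 in GSTM1 KD.

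Of the 12 autophagy partners of p62, 2 were higher in GSTM1 KD in each state, where Sqstm1 had negative values. Tfeb, a regulator of lysosome genes, was 2.18-fold and 2.70-fold higher (adjusted p = 0.0263 and 0.0195 by edgeR), and Ulk1, the kinase that starts autophagy, 1.55-fold and 1.43-fold higher (0.0376 and 0.0416). Optn, another cargo receptor, rose 1.64-fold with TNF-α in control KD (0.0346 by edgeR), as Sqstm1 did.

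The medians of the 8 lists just described lay between -0.26 and 0.25 in the knockdown comparisons. The list of NF-κB driven genes had medians of -0.89 at the basal level and -0.81 in stimulated cells, with 5 of 10 genes lower in each state, Birc3, Tnfaip2, Icam1, Ccl2 and Tnfaip3. All 10 of them nevertheless rose with TNF-α in GSTM1 KD.

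**Figure D5:**
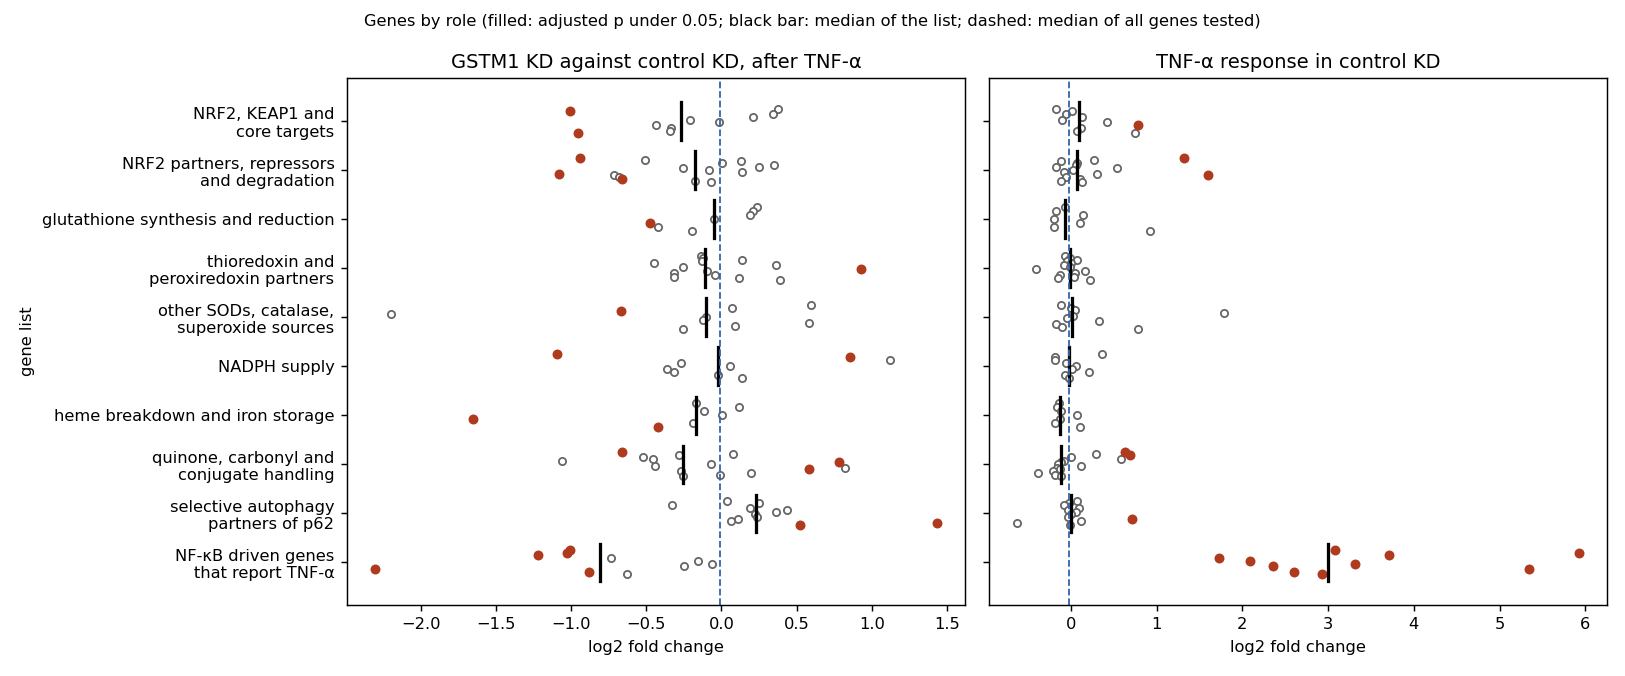
Log2 fold changes of single genes in 10 lists, for GSTM1 KD over control KD in stimulated cells (left) and for the TNF-α response in control KD (right). Filled points have an adjusted p under 0.05 in edgeR, black bars are list medians, and the NF-κB driven genes lie farthest from 0 in the right panel.

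The 10 genes did not move as a block across the 8 libraries. In log2 CPM, Pearson's r was 0.964 between Hmox1 and Txn1, 0.826 between Hmox1 and Txnrd1, and -0.949 between G6pdx and Txnrd1, while between Nfe2l2 and Hmox1 it was -0.50 and between Nfe2l2 and Keap1 0.57. These correlations describe 8 libraries that share 4 groups and the same 2 replicate numbers. The genes most like Nfe2l2 were Mab21l3 at r = 0.974, Acvr1c at 0.965 and Phactr1 at 0.961. Those most like Nqo1 were Mcm7 at 0.972, Exo1 at 0.964 and Nol7 at 0.963, and those most like Sod2 were Opn3 at 0.981, Khsrp at 0.975 and RP23-71J17.1 at 0.968.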

How the data were processed

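RNA-seq libraries were strand-specific (NEB Next Ultra Directional). The authors mapped reads to GRCm38 with STAR 2.5.4b and quantified genes with RSEM 1.3.0, per the labels and the study's methods. The deposited expected counts are unnormalized estimates, in which reads shared by several genes are divided. The deposited TPM values are scaled to the same total in each library, and the deposited effective lengths are in bases. FPKM columns were not used here.

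Expected counts were rounded. edgeR 4.0.16 (R 4.3.3) gave TMM factors, filterByExpr and the quasi-likelihood test, with Benjamini-Hochberg adjustment over all genes tested at 0.05. Standard errors were worked back from the log2 fold change and the F statistic of the quasi-likelihood test. The 95% intervals use these standard errors and the degrees of freedom of the test, and CPM uses TMM-scaled library sizes. The knockdowns were contrasted within a state, using its 4 libraries alone. TNF-α responses and their difference used all 8 libraries. The study used DESeq2, which was an alternative here (version 1.42.0). Other alternatives were other size factors or library size alone, other filters, effective lengths as offsets, a replicate block, other sets of libraries, limma 3.58.1 on log2(TPM + 1) and log2(TPM + 0.1), edgeR's newer method and leaving out each library. The procedures were run on simulated counts that had the same spread in every group and no effect of a replicate number. That run cannot bear on calls that depend on either.

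The genes, lists and motifs were chosen with earlier results of these data known. Named are the 10 genes in every comparison, Gstm1, paralogs and direct partners of the 10, and up to 4 genes of a list past the threshold with the smallest p-values, with Tnfaip3, Fth1 and the cell markers added after their values were seen. The list of ribosomal protein genes, the motif TGAGNNNGC and edgeR's newer method were added after the data were seen. Likeness is Pearson's r of log2 CPM with a prior count of 2. Gene positions are from GENCODE M21 on GRCm38, where the identifier of Sod2 has another version, and promoter sequences are from RefSeq on GRCm38.p6. Drawing used Python 3.11.15 and matplotlib 3.10.9.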

Additional observations from a re-analysis of the deposited data

How the results depend on the processing

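No log2 fold change of the 10 genes that passed the test reversed under any alternative run. With 2 libraries per group, few residual degrees of freedom limit every call, and leaving out a library leaves 1 that is assumed to vary like the others. Without each library in turn, the genes called in GSTM1 KD ran from 1 (without GSTM1 KD replicate 1) to 5256 at the basal level (without replicate 2 of control KD), and from 0 to 5028 in stimulated cells for the same replicates. Of the 10 genes, 0 to 5 passed in each state. TNF-α responses ran from 180 to 313 genes in control KD, with 1 of the 10 genes throughout, and from 74 (without GSTM1 KD basal replicate 2) to 444 in GSTM1 KD, with 0 to 1 of the 10. Their difference ran from 0 to 2 genes, with 0 of the 10. The causes were not tested.

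DESeq2 called 2492 genes against 1524 at the basal level, 742 against 403 and 630 against 406 for TNF-α in control KD and GSTM1 KD, and 27 against 0 for their difference, with 2 of the 10 genes (Sqstm1 and Txnrd1) in the control KD response. Without a filter the counts were 3957 at the basal level and 4540 against 2360 in stimulated cells, 1255 and 1050 for the responses and 134 for their difference. Of the 10 genes 3, 4 and 2 then passed in the basal, stimulated and control KD response comparisons. With all 8 libraries in the fit 2762 genes and 2 of the 10 passed at the basal level, and 3116 genes and 5 of the 10 in stimulated cells. With only the 4 libraries of a knockdown the responses counted 72 genes and 0 of the 10 in control KD, and 691 genes in GSTM1 KD. In limma on log2(TPM + 1) and log2(TPM + 0.1), 0 and 0 of the 10 passed at the basal level, and 1565 and 1558 genes passed in stimulated cells, 55.3% and 55.2% of them higher against 44.9%.

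With the replicate block 4712 genes and 4 of the 10 passed at the basal level, 4302 genes and 7 of the 10 in stimulated cells, 988 genes and 3 of the 10 in the control KD response, and 808 genes in the GSTM1 KD response, while the difference stayed at 0. The genes that passed with the block and not without it were Txnrd1, Txn1 and G6pdx at the basal level, Keap1, Sqstm1, Txn1, G6pdx and Srxn1 in stimulated cells, and Txnrd1 and Sod2 in the control KD response. Same-numbered libraries deviated together, with correlations from 0.165 to 0.575 between groups over 15332 genes, but the labels do not give the meaning of the 2 numbers, and the libraries were not treated as paired.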
